A study of Mus musculus with 5 samples.

Results

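The replication-dependent histone genes were followed across the 5 arrays of an RNA immunoprecipitation (RIP) experiment on MKRN1, a makorin protein with zinc fingers and a RING domain. Members were all probe sets whose gene symbol in the platform annotation begins with Hist1h, Hist2h, Hist3h or Hist4h, or is one of the current symbols H1f1 to H1f5, or H2ac, H2bc, H3c or H4c with a number. The rule itself used no measured value, but it was chosen with earlier results of these data known. It found 48 of the 34760 probe sets on the array. Of these, 26 carried a single gene symbol and 22 carried several. Together they named 62 genes, 52 on chromosome 13 and 10 on chromosome 3, and 26 of those genes had a probe set of their own.

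The cells were R1 mouse embryonic stem cells, a male line from the inner cell mass of a 129X1 x 129S1 blastocyst, passaged off their fibroblast feeders onto gelatin in LIF and 15% serum. Both lines were G418-resistant clones. One constitutively expressed pCAGGS::3xN-FLAG:MKRN1 (FLAG:MKRN1) and the other carried the pCAGGS FLAG construct without MKRN1 (FLAG:Ctrl), so a difference between the constructs cannot be told apart from one between clones. The 5 groups were an anti-FLAG RIP on FLAG:MKRN1 lysate (the MKRN1-labelled RIP), an anti-FLAG RIP on FLAG:Ctrl lysate (the FLAG:Ctrl RIP), an IgG RIP on FLAG:MKRN1 lysate (the IgG RIP), and the inputs of the FLAG:MKRN1 and FLAG:Ctrl lysates. Inputs were total RNA of the same lysates, taken before the antibody step. Each array received cDNA made from 10 ng of RNA. Each group held 1 array, so there was no replicate error, no test was made, and every difference below compares single arrays. The question put by the design is which RNAs the MKRN1-labelled RIP held beyond, or short of, the background of the 2 control RIPs.

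Replication-dependent histone genes encode the bulk of the core histones H2A, H2B, H3 and H4, which form the nucleosome, and of the linker histone H1, which binds the DNA between nucleosomes. Their mRNAs accumulate in S phase, when new DNA has to be packaged. Unlike most mRNAs of animal cells they usually end in a conserved stem-loop and not in a poly(A) tail. The stem-loop binding protein SLBP and the U7 small nuclear RNP form this end, and the same end directs rapid decay when DNA synthesis stops. The genes lie in clusters and exist in many copies that encode nearly the same protein.

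The deposited values were on the log2 scale, and the value of one probe set was not ranked against that of another. A member was kept for counts when its mean over the 5 arrays was at or above 5.76, the median of the means of all probe sets. By this filter 44 members passed, and H1f3, H2ac8, H3c4 and H3c7 did not. Members were called lower if their value in the MKRN1-labelled RIP was 2-fold or more under each control RIP and also under the input of that lysate, and higher by the reverse rule. The score of a member is whichever of its 2 control RIP differences lies nearer to 0, and it is set to 0 when one is positive and the other negative. Both differences use the MKRN1-labelled RIP, so neither is an independent repeat of the other.

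The Mkrn1 probe set did not mark the labelled lysate. It read 11.71 on the log2 scale in the FLAG:MKRN1 input, against 11.80 in the FLAG:Ctrl input, and 11.90 in the MKRN1-labelled RIP, against 12.20 in the FLAG:Ctrl RIP and 11.99 in the IgG RIP. Whether that probe set reads the construct is not given in the sources used here, and all directions below rest on the label. All 12 stem cell markers examined passed the level filter, with median log2 values of 10.81 and 10.95 in the FLAG:MKRN1 and FLAG:Ctrl inputs. Of 10 fibroblast markers 5 passed the filter, and the median of all 10 was 5.74 in the MKRN1-labelled RIP, 5.83 in the FLAG:Ctrl RIP and 5.45 in the IgG RIP; in the inputs it was 5.45 (FLAG:MKRN1) and 5.70 (FLAG:Ctrl). Marker by marker, 9 of 10 were higher in the MKRN1-labelled RIP than in the FLAG:Ctrl RIP, and 9 of 10 higher than in the IgG RIP, with median differences of 0.24 and 0.32 over those above the filter. Of all 22961 named probe sets, 13032 were higher than in the FLAG:Ctrl RIP and 12994 than in the IgG RIP. Above the filter, 5381 and 5486 of 13183 were. Higher values were thus commoner below the filter. The 5 fibroblast markers above it (Col1a1, Col1a2, Col3a1, Thy1 and Twist2) were nevertheless all higher than in both control RIPs. Their differences from the FLAG:Ctrl RIP ran from 0.08 for Col1a1 to 0.39 for Col1a2, and the reason was not tested. Thy1 was 8.89 in the FLAG:MKRN1 input, against 9.88 in the FLAG:Ctrl input, while Lum stayed between 3.72 and 3.83 on all 5 arrays. No marker of either list was called higher or lower, and the part of feeder RNA in the histone values was not tested. Over all probe sets the values of the MKRN1-labelled RIP were the least spread (SD 2.19), the remaining arrays having SDs between 2.28 and 2.35.

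Sequences just upstream of the transcription start are shown for 4 genes whose values differed. H2bc3 and H4c4 are core histone genes that were low in the MKRN1-labelled RIP, H3c15 is the H3 gene that was high there, and H2ac1 shares a divergent promoter region with H2bc1, from which its values differed. Each stretch is 250 bases long and comes from RefSeq on GRCm38.p6. It lies at chr13:23746484-23746733 (+) for H2bc3, chr13:23581318-23581567 (+) for H4c4, chr3:96239128-96239377 (-) for H3c15 and chr13:23934187-23934436 (+) for H2ac1. Capitals mark the letters TATAAA, found in TATA boxes, the promoter element CCAAT, and ATTTGCAT, the octamer known from H2B promoters, searched on both strands; no 2 of these matches overlap in the 4 windows.
H2bc3: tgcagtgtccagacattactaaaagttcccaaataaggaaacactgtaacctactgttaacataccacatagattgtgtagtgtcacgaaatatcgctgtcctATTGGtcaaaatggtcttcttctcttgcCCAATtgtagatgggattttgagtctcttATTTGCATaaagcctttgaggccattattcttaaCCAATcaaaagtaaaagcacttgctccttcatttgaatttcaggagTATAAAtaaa
H4c4: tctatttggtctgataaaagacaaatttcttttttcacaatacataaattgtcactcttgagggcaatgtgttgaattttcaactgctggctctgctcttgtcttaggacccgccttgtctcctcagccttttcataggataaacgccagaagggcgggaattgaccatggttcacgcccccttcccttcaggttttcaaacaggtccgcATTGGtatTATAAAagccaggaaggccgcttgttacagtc
H3c15: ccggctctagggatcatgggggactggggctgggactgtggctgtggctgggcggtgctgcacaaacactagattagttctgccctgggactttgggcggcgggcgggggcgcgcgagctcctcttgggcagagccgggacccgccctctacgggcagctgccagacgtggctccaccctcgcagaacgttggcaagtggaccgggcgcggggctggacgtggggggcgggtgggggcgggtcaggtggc
H2ac1: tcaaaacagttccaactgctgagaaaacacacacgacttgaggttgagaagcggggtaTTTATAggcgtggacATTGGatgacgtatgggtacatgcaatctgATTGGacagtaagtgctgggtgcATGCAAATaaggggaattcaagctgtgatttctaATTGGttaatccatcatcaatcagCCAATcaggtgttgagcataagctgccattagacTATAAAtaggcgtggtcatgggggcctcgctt

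Such sequences were found for 57 of the 62 genes, and the same letters were counted in all 27025 genes with one. TATAAA was present in 28 of 57 member genes (49.12%), against 12.97% of all genes. CCAAT was present in 47 member genes (82.46%), against 34.46%, and ATTTGCAT in 12 (21.05%), against 1.61%. The octamer letters were in 6 of 17 H2a genes and 6 of 14 H2b genes, and in 0 of 5 H1, 0 of 10 H3 and 0 of 11 H4 genes. Both strands were searched, and 9 pairs of an H2a and an H2b gene lie with overlapping windows. The same match can therefore be counted for both genes of a pair, and the gene counts are not all separate. CCAAT was in every H1, H2a and H2b gene with a sequence and in 8 of 10 H3 genes, but in 3 of 11 H4 genes. H3c15 had none of the 3 motifs in this window. Its window shared an identical run of 231 bases with that of H3c14, another H3 gene of the same cluster. The H3c15 values below are uncertain as values of 1 gene, since probe sequences were not used here. These letter matches describe the windows and are not evidence of binding.

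Histone members were called lower more often than higher. Of the 44 members above the filter, 19 were called lower and 3 higher, and 22 were in neither class. Among all 13183 named probe sets above the filter, 5.98% were called lower and 1.43% higher. None of the 4 members below the filter was called, so over all 48 members the counts were 19 lower, 3 higher and 26 in neither class, beside 3.48% lower and 1.04% higher of all 22961 named probe sets. The median difference of members above the filter was -0.95 and -0.88 from the FLAG:Ctrl and IgG RIPs, whereas the medians over all named probe sets above the filter were -0.02 and -0.00. The MKRN1-labelled RIP was below the FLAG:Ctrl RIP for 34 of 44 members and below the IgG RIP for 36. Of the 13183 named probe sets above the filter, 6839 and 6621 lay below these RIPs. For members, the MKRN1-labelled RIP was the lowest of the 5 arrays in 33 of 44 and the highest in 3. In 37 of 44 members the score exceeded in size the difference between the 2 control RIPs. Counts of the lowest array, the highest array and the score size were not made over all named probe sets, so they have no background here. Single-symbol probe sets gave 10 lower calls and 1 higher call among 22 above the filter, and shared ones gave 9 and 2 among 22.

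Against the FLAG:Ctrl RIP alone, 20 members were at least 2-fold lower and 3 at least 2-fold higher, beside 7.71% and 2.17% of named probe sets above the filter. Against the IgG RIP alone the counts were also 20 and 3, beside 7.74% and 2.01%. The control RIPs differed from each other by 2-fold for no member, beside 0.448% of named probe sets lower and 0.265% higher in the FLAG:Ctrl RIP. The scaling of the arrays moved the balance of calls over all named probe sets. Of those called, 19.2% were higher without further scaling, 8.33% when arrays were centred on their medians, 32.3% after quantiles were equalised, 29.9% after removing the trend with signal level and 34.0% with centring on named probe sets above the filter. Members gave 3 higher calls under each of these 5 scalings, and 19, 24, 17, 17 and 16 lower calls in the same order. Centring on array medians moved the median of all named probe sets above the filter to -0.23 against the FLAG:Ctrl RIP, with the member median at -1.16. Centring on named probe sets above the filter moved it to 0.14, with the member median at -0.79.

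**Figure D1:**
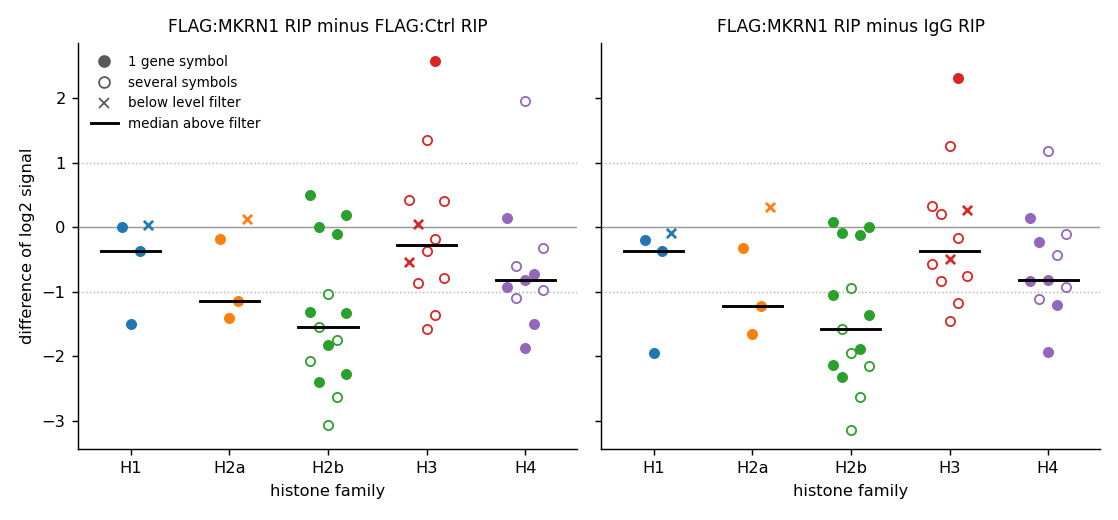
Difference in log2 value between the MKRN1-labelled RIP and each control RIP for members by histone family, without the 2 probe sets that span families; filled points are probe sets with 1 symbol, open points carry several, crosses lie below the level filter, and the black line is the median of members above it. H2b lies lowest, with medians of -1.55 and -1.57, and H3 holds both the 2.58 of H3c15 and values down to -1.58.

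H2B, the partner of H2A in the nucleosome, was the family with the most calls. Of its 15 probe sets, all above the filter, 10 were called lower and none higher, and the family medians were -1.55 and -1.57 against the FLAG:Ctrl and IgG RIPs. H2bc3 had a log2 value of 6.84 in the MKRN1-labelled RIP, against 9.23 in the FLAG:Ctrl RIP, 9.16 in the IgG RIP, 9.32 in its own input and 8.92 in the FLAG:Ctrl input. The MKRN1-labelled RIP alone stood low, 5.24-fold and 4.99-fold below the FLAG:Ctrl and IgG RIPs, and the other 4 arrays lay close together. H2bc14 showed the same pattern, with 8.75 in the MKRN1-labelled RIP, against 11.02 in the FLAG:Ctrl RIP, 10.88 in the IgG RIP, 11.05 in its own input and 11.07 in the FLAG:Ctrl input. Its differences from the control RIPs were -2.28 and -2.14. H2bc1 was at 5.47 in the MKRN1-labelled RIP, against 7.30 in the FLAG:Ctrl RIP, 7.36 in the IgG RIP, 7.45 in its own input and 7.16 in the FLAG:Ctrl input. That single value lies under 5.76, the level filter, so the size of its difference depends on a dim reading.

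A further pair of single-symbol H2b genes was called with smaller differences. H2bc9 was at 8.91 in the MKRN1-labelled RIP, against 10.23 in the FLAG:Ctrl RIP and 10.28 in the IgG RIP, and H2bc18, the H2b gene of the chromosome 3 cluster among those called, was at 6.40, against 7.71 and 7.45. H2bc18 lay nearest to the threshold among called H2b members, with a difference of -1.05 from the IgG RIP, and the shared H2b probe set 10408070 lay just outside it, with -1.04 and -0.95 from the FLAG:Ctrl and IgG RIPs.

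The remaining single-symbol H2b genes did not share the pattern. H2bc8 stayed between 8.22 and 8.38 on all 5 arrays, with differences of -0.10 and -0.09 from the FLAG:Ctrl RIP and the IgG RIP. H2bc22 was at 6.33 in all 3 RIPs, and H2bc21 differed by 0.20 and -0.11. H2bc4 was at 9.86 in the MKRN1-labelled RIP, against 9.35 in the FLAG:Ctrl RIP, 9.77 in the IgG RIP, 8.49 in its own input and 9.35 in the FLAG:Ctrl input. For H2bc4 the FLAG:MKRN1 input was the array that stood apart, and both RIPs of that lysate were above it, the MKRN1-labelled RIP by 1.37 and the IgG RIP by 1.28.

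Shared H2b probe sets held the 2 lowest scores of all members. Probe set 10403980, annotated to 15 symbols, was at 8.49 in the MKRN1-labelled RIP, against 11.55 in the FLAG:Ctrl RIP, 11.63 in the IgG RIP, 11.63 in its own input and 11.44 in the FLAG:Ctrl input. This made it 8.33-fold and 8.85-fold below the FLAG:Ctrl and IgG RIPs. Probe set 10408210, with 14 symbols, was at 9.74 in the MKRN1-labelled RIP and at 12.37 in both control RIPs, with inputs at 12.47 and 12.37. The other called shared sets were 10408087, with differences of -2.08 and -2.15, 10403978, with -1.75 and -1.94, and 10403948, with -1.55 and -1.57. All 6 shared H2b probe sets lay below both control RIPs, although probe sets with one and the same annotation still ranged between -3.06 and -1.75 (3 probe sets with 15 symbols) and between -2.62 and -1.04 (3 with 14) against the FLAG:Ctrl RIP.

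H2A had few probe sets, 4, of which 3 passed the filter and 2 were called lower. H2ac4 was at 6.23 in the MKRN1-labelled RIP, against 7.64 in the FLAG:Ctrl RIP, 7.89 in the IgG RIP, 8.52 in its own input and 7.68 in the FLAG:Ctrl input. H2ac15 was at 8.55, against 9.68 in the FLAG:Ctrl RIP, 9.77 in the IgG RIP, 10.33 in its own input and 9.91 in the FLAG:Ctrl input. In both genes the MKRN1-labelled RIP was the lowest array and the FLAG:MKRN1 input the highest. H2ac1 was at 7.40, against 7.58 in the FLAG:Ctrl RIP, 7.73 in the IgG RIP, 8.85 in its own input and 7.73 in the FLAG:Ctrl input, with differences of -1.45 from its own input and of -0.17 and -0.32 from the control RIPs. Further H2a genes were read through a probe set annotated to 19 symbols, 10494386, which also names the replacement histone H2ax and H3c4. It was called lower, with 5.63 in the MKRN1-labelled RIP, against 8.45 in the FLAG:Ctrl RIP, 8.11 in the IgG RIP, 6.32 in its own input and 7.99 in the FLAG:Ctrl input. Its own input differed from the FLAG:Ctrl input by -1.67, and the RIP from its own input by -0.69. The H2ax probe set with a single symbol was not low there, with differences of -0.15 and -0.08.

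Linker histone H1 gave 1 lower call among the 3 probe sets above the filter. H1f5 was at 9.20 in the MKRN1-labelled RIP, against 10.69 in the FLAG:Ctrl RIP, 11.14 in the IgG RIP, 11.04 in its own input and 10.34 in the FLAG:Ctrl input. H1f1 was at 9.68, against 10.05 in both control RIPs, 10.13 in its own input and 9.36 in the FLAG:Ctrl input, so it stayed above the FLAG:Ctrl input. H1f2 was at 8.71 both in the MKRN1-labelled and in the FLAG:Ctrl RIP, against 8.91 in the IgG RIP and 8.26 in its own input. The probe set 10408212, which names H2bc6 and H1f4 together, had differences of -0.998 and -1.08 and fell just short of a call against the FLAG:Ctrl RIP.

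**Figure D2:**
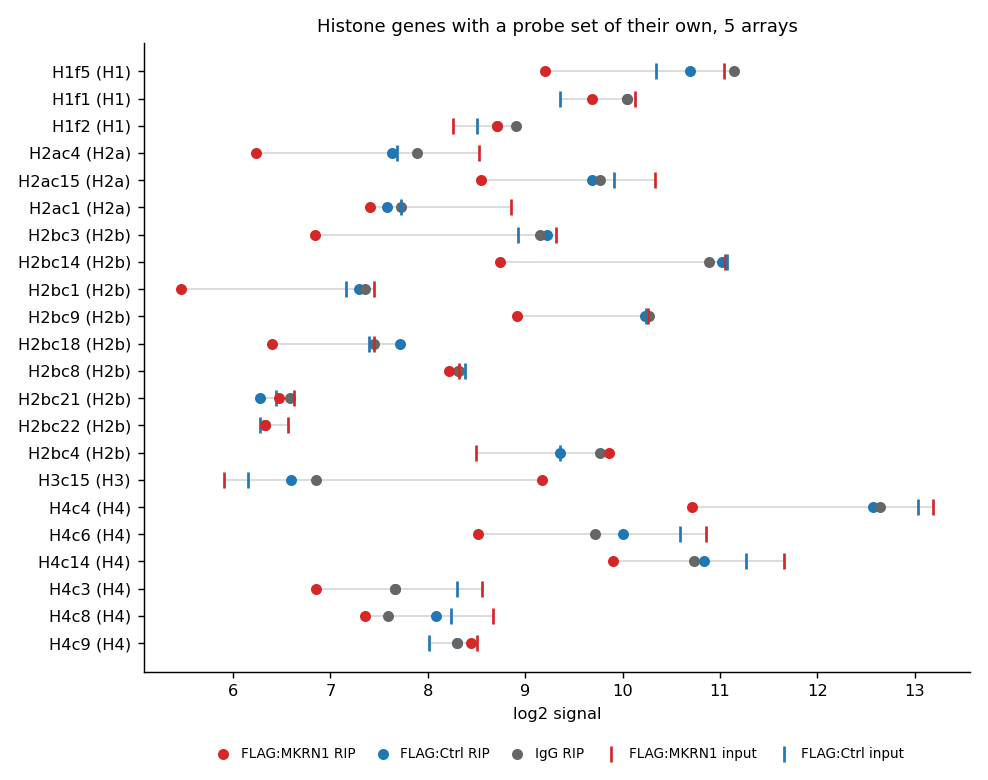
Log2 value of the single-symbol members above the level filter on the 5 arrays. Dots are the 3 RIPs and ticks the 2 inputs. Red marks the MKRN1-labelled RIP and the FLAG:MKRN1 input, blue the FLAG:Ctrl RIP and its input, and grey the IgG RIP. H2bc3, at 6.84 in the MKRN1-labelled RIP against 9.23 in the FLAG:Ctrl RIP, and H3c15, at 9.17 against 6.60, show the opposite orders.

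H4, which pairs with H3 in the core of the nucleosome, gave 3 lower calls and 1 higher call among 11 probe sets, with a family median of -0.81 against each control RIP. H4c4 was at 10.71 in the MKRN1-labelled RIP, against 12.58 in the FLAG:Ctrl RIP, 12.64 in the IgG RIP, 13.19 in its own input and 13.03 in the FLAG:Ctrl input. The order of H4c4 was thus inputs highest, control RIPs between, and the MKRN1-labelled RIP lowest. H4c6 had the same order, with 8.51 in the MKRN1-labelled RIP, against 10.00 in the FLAG:Ctrl RIP, 9.72 in the IgG RIP, 10.86 in its own input and 10.59 in the FLAG:Ctrl input. The shared probe set 10404067, with 11 symbols, was also called, with differences of -1.10 and -1.11. Below the threshold lay the shared 10408243 (-0.98 and -0.93), H4c14 (-0.93 and -0.83), H4c3 (-0.81 and -0.81), H4c8 (-0.72 and -0.23), and the shared 10408074 (-0.60 and -0.43) and 10408092 (-0.31 and -0.10).

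The remaining H4 probe sets were not low. H4c9 differed by 0.14 from each control RIP. The probe set of H4c17 and H4c11, 10403945, was called higher, with 8.53 in the MKRN1-labelled RIP, against 6.57 in the FLAG:Ctrl RIP, 7.34 in the IgG RIP, 8.13 in its own input and 7.46 in the FLAG:Ctrl input. Both control RIPs lay below their inputs at this probe set, and the MKRN1-labelled RIP lay 0.40 above its own.

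H3 was the family whose members differed most among themselves, with 2 lower and 2 higher calls among 10 probe sets above the filter. Its medians were -0.28 and -0.37 against the FLAG:Ctrl and IgG RIPs. H3c15 was the only single-symbol H3 gene above the filter and had the highest score of all members. It was at 9.17 in the MKRN1-labelled RIP, against 6.60 in the FLAG:Ctrl RIP, 6.85 in the IgG RIP, 5.91 in its own input and 6.16 in the FLAG:Ctrl input, which is 5.97-fold and 5.00-fold above the FLAG:Ctrl and IgG RIPs. The other 4 arrays lay between 5.91 and 6.85, close to the level filter, and both control RIPs were above both inputs. The H3 median depends on which probe sets are counted. With single-symbol probe sets alone it is the 2.58 and 2.32 of H3c15. With 1 probe set for each gene or annotation it was 0.90 and 0.79. These are only the midpoints between H3c15 and the shared 10404049, which differed by -0.78 and -0.75.

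The other 9 H3 probe sets above the filter all carried one and the same list of 12 symbols, yet they ranged between -1.58 and 1.35 when set against the FLAG:Ctrl RIP, with a range of -1.45 to 1.26 for the IgG RIP. Probe set 10494405 was at 7.68 in the MKRN1-labelled RIP, against 9.26 in the FLAG:Ctrl RIP, 9.13 in the IgG RIP, 10.77 in its own input and 10.45 in the FLAG:Ctrl input, and 10408202 had the same order with differences of -1.36 and -1.17. Both were called lower. Probe set 10403941 was called higher, with 8.13 in the MKRN1-labelled RIP, against 6.78 in the FLAG:Ctrl RIP, 6.87 in the IgG RIP, 5.48 in its own input and 8.21 in the FLAG:Ctrl input. The FLAG:MKRN1 input of 10403941 was below the FLAG:Ctrl input by a difference of -2.73, larger in size than its differences between RIPs, and the FLAG:Ctrl input stood at about the level of the MKRN1-labelled RIP. The rest were in neither class, with differences from the FLAG:Ctrl RIP of -0.86, -0.78, -0.37, -0.18, 0.41 and 0.42. Since the annotation gives these 9 probe sets to the same genes, the array does not say which H3 gene lies behind a given value.

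A second question is how far each RIP lay from the input of its own lysate, and here the families divided in the control RIPs already. H3 and H4 probe sets were mostly below input in every RIP, while the H2b median was below input in the MKRN1-labelled RIP and near 0 in the control RIPs. Over the 44 members the median RIP minus input was -1.40 for the MKRN1-labelled RIP, and -0.15 and -0.27 for the FLAG:Ctrl and IgG RIPs, where all named probe sets above the filter had medians of 0.00, 0.01 and 0.01. In the MKRN1-labelled RIP 29 members were at least 2-fold below input and 3 at least 2-fold above, beside 6.24% and 2.99% of named probe sets. In the FLAG:Ctrl RIP the counts were 4 and 1, beside 0.508% and 1.16%, and in the IgG RIP 8 and 3, beside 0.637% and 1.52%. Of the 44 members, 24 lay below their own input in all 3 RIPs. That count was not made over all named probe sets.

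H4 had medians relative to input of -1.54 in the MKRN1-labelled RIP, -0.45 in the FLAG:Ctrl RIP and -0.83 in the IgG RIP. The FLAG:Ctrl RIP was below input for 10 of 11 H4 probe sets and the IgG RIP for 11 of 11. Of the 13183 named probe sets above the filter, 4511 and 4304 were below input in these RIPs. Among the H4 probe sets, 4 carry one and the same list of 11 symbols, so the 11 are not separate genes. H3 medians were -1.38, -0.83 and -0.93 in the same order of RIPs, and 8 of 10 H3 probe sets were below input in all 3. H2b had -1.34 in the MKRN1-labelled RIP but 0.00 in the FLAG:Ctrl RIP and -0.04 in the IgG RIP, with 4 of 15 below input in all 3. H2a had -1.78, -0.15 and -0.63, and all 3 of its probe sets were below input in all 3 RIPs. H1 had -0.45, 0.35 and 0.11, and none of its 3 probe sets was below input in all 3.

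**Figure D3:**
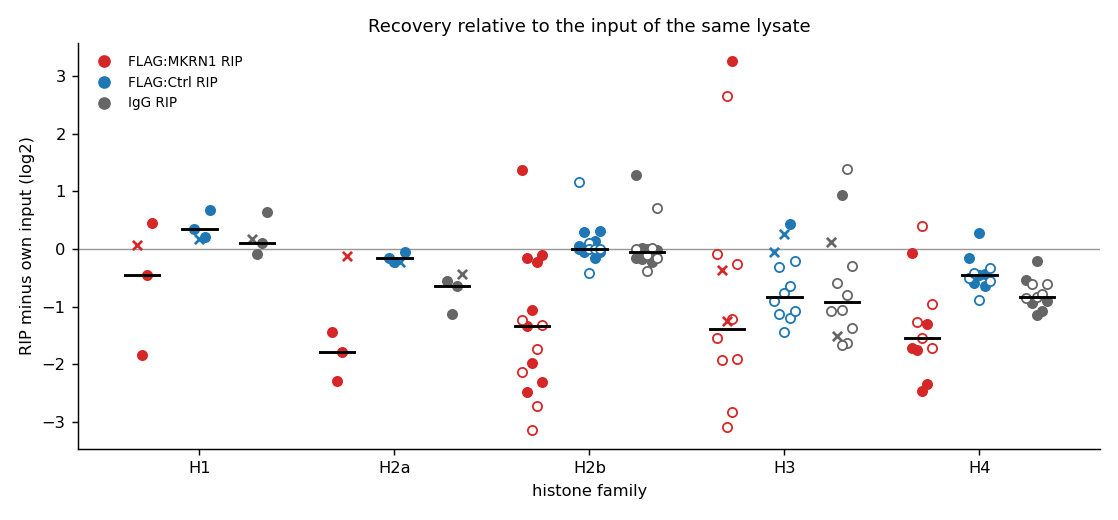
RIP minus the input of the same lysate, in log2 units, for members above and below the filter by family, without the 2 probe sets that span families; red is the MKRN1-labelled RIP, blue the FLAG:Ctrl RIP and grey the IgG RIP, with black lines at the medians of members above the filter. The blue and grey points of H2b centre on 0.00 and -0.04, whereas those of H3 centre on -0.83 and -0.93 and those of H4 on -0.45 and -0.83.

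The lysates themselves differed less. The FLAG:MKRN1 input was above the FLAG:Ctrl input for 35 of 44 members and below it for 9, with a median difference of 0.24, where named probe sets above the filter had 0.00. Of those 13183 named probe sets, 5292 were above and 6140 below. At least 2-fold differences were found for 1 member higher and 2 lower, beside 1.04% and 0.971% of named probe sets. The higher one was H2ac1, by 1.12, and the lower ones were the shared 10403941, with a difference of -2.73, and 10494386, with -1.67. All 11 H4 probe sets were higher in the FLAG:MKRN1 input, by 0.06 to 0.67. In bulk lysate a larger share of cells in S phase and more histone mRNA in each cell cannot be told apart. Of the 19 members called lower in the MKRN1-labelled RIP, 17 had a higher value in the FLAG:MKRN1 input than in the FLAG:Ctrl input, and H2bc14 and the shared 10494386 did not. This stands beside 35 of all 44 members, and the count was not made over all named probe sets called lower.

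Genes called lower lay at several places in the clusters. On chromosome 13, 9 of 18 single-symbol members above the filter were called lower and none higher, and on chromosome 3 the call was lower for H2bc18, higher for H3c15 and neither for H2bc21 and H4c14. Adjacent genes included like pairs and unlike ones. H2bc3 and H2ac4 lie next to each other and were both called lower. H4c3 and H1f2 lie next to each other a few genes away, with scores of -0.81 and 0.00, and H2bc4 beside H4c3 had a score of 0.09. Of 9 divergent pairs, in which an H2a and an H2b gene are transcribed away from a common region, 2 had single-symbol probe sets for both genes. H2ac1 differed by -0.17 and -0.32 from the FLAG:Ctrl and IgG RIPs, and its partner H2bc1 by -1.83 and -1.89. H2ac8, which lies below the filter, differed by 0.13 and 0.32, and its partner H2bc8 by -0.10 and -0.09.

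**Figure D4:**
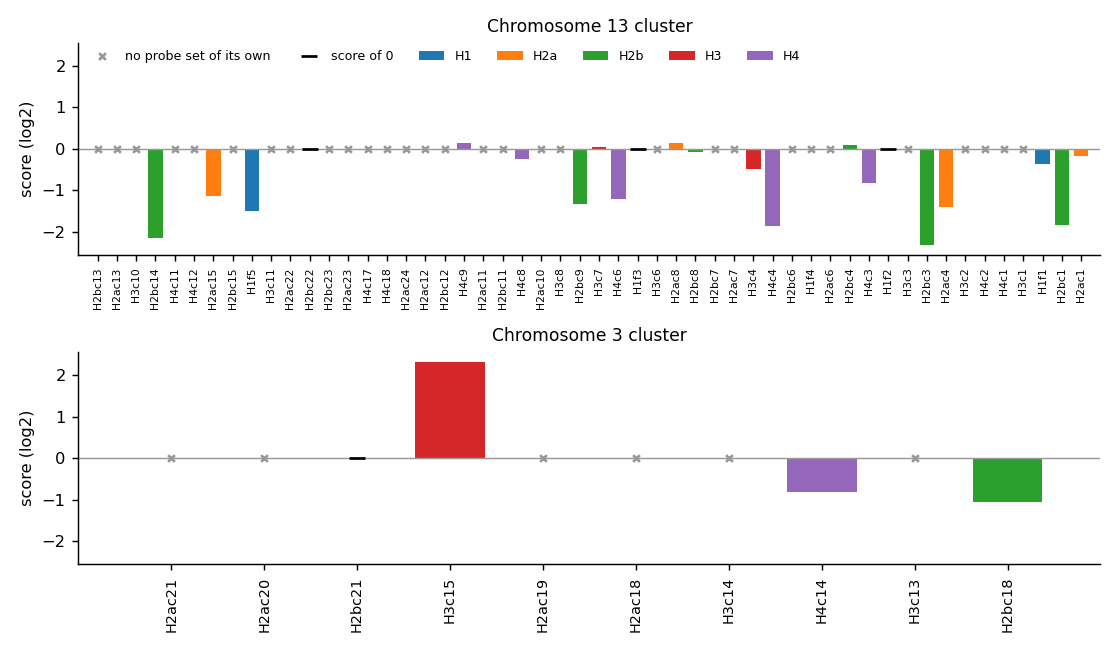
Score of each single-symbol member, in log2 units, in gene order along the chromosome 13 and chromosome 3 clusters; bars are scores, including members below the filter, a black dash marks a score of 0 and a grey cross a gene without a probe set of its own. Low scores such as -2.32 for H2bc3 and -2.14 for H2bc14 lie at different places in the chromosome 13 cluster, and the one high score, 2.32 for H3c15, lies in the chromosome 3 cluster.

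Other genes of histone biology were compared as lists. The mRNAs of replacement histones are polyadenylated and made outside S phase as well, although that of H2ax is made with and without a poly(A) tail. Their list had a median score of 0.00. It gave 1 lower call and no higher call among 15 probe sets above the filter, for 10 of the 12 genes listed. That is 6.67%, near the 5.98% of all named probe sets above the filter. The call was a probe set shared by H3f3a and Gm12657, at 10.89 in the MKRN1-labelled RIP, against 12.56 in the FLAG:Ctrl RIP and 12.69 in the IgG RIP. The 3 other H3f3a probe sets above the filter, each also annotated to 2 symbols, differed by 0.32, -0.38 and -0.88 from the FLAG:Ctrl RIP. The H3f3a probe set with a single symbol was below the filter, at 4.37 on all 5 arrays. No value above the filter thus reads this H3.3 gene alone, and the array does not say which gene lies behind each. H1f10, a replacement linker histone, was 0.76 and 1.20 above the control RIPs, H2az2 was 0.62 and 0.55 above them, and of 2 H2az1 probe sets one was equal on all 3 RIPs and the other differed by -0.55 and -0.57.

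Genes that act on histone mRNA gave 2 lower calls and no higher call among 25 probe sets above the filter for 23 of the 24 genes listed, with a median score of 0.00. The share called lower was 8.00%, close to that background of 5.98%. Npat, the coactivator of histone gene transcription in S phase, was at 6.83 in the MKRN1-labelled RIP, against 8.51 in the FLAG:Ctrl RIP, 8.66 in the IgG RIP, 8.58 in its own input and 8.28 in the FLAG:Ctrl input. Cpsf2, a subunit of the complex that cuts the histone pre-mRNA, was at 9.95, against 10.96 in the FLAG:Ctrl RIP, 11.07 in the IgG RIP, 10.83 in its own input and 10.74 in the FLAG:Ctrl input. Casp8ap2 (FLASH), which acts with the U7 snRNP, differed by -0.83 and -0.92 from the control RIPs. Slbp itself was read by a pair of probe sets, which differed from the control RIPs by -0.52 and -0.75 at one and by -0.17 and -0.40 at the other.

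Histone chaperones and assembly factors gave no call among 21 probe sets for 17 of the 18 genes listed, with a median score of 0.00. The nearest to a call were Ipo4, an importin that carries H3 and H4, with differences of -0.82 and -0.78, Chaf1b, a subunit of the replication-coupled assembly factor CAF-1, with -0.73 and -0.73, and Supt16, a subunit of the chaperone FACT, with -0.75 and -0.67. S-phase genes with polyadenylated mRNAs gave 2 lower calls and no higher call among 26 probe sets for 23 of 24 genes listed. Their median score was -0.30, and the 7.69% called lower was near the 5.98% over all named probe sets above the filter. Only 4 of the 26 were above the FLAG:Ctrl RIP and 4 above the IgG RIP, with median differences of -0.31 and -0.43. Of the 13183 named probe sets above the filter, 5381 and 5486 were above these RIPs. The calls were Mcm4, a subunit of the replicative helicase, with -1.16 and -1.08, and Pola1, the catalytic subunit of DNA polymerase alpha, with -1.02 and -1.09. A probe set of Pcna, the sliding clamp, lay close by with -0.99 and -1.16, but its other probe set differed by -0.31 and -0.45. Set beside these lists, the median score of the 44 histone members was -0.88, and that of all named probe sets above the filter was 0.00. Since each value comes from 1 array, these medians describe the arrays and no test of their difference was made. The cDNA primer is not given either, and it bears on mRNAs without a poly(A) tail.

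**Figure D5:**
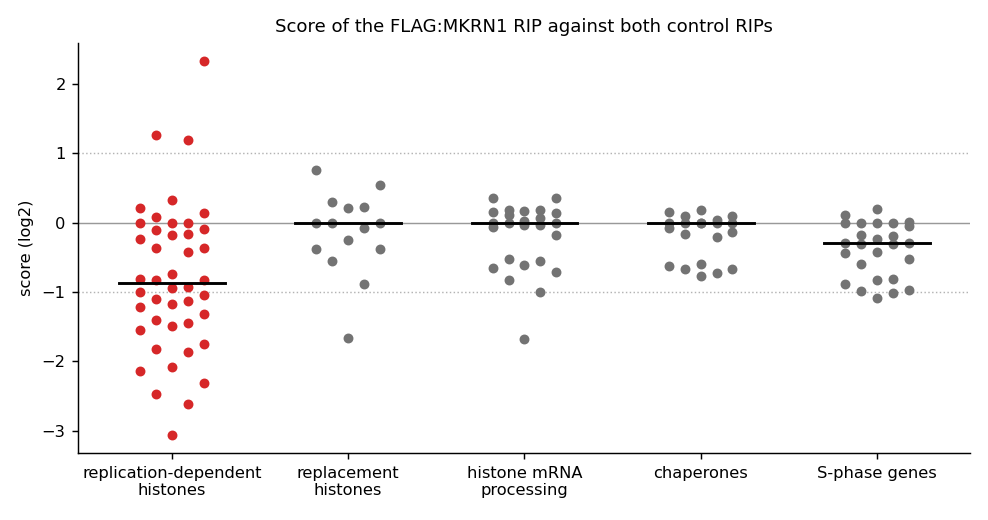
Score in log2 units of each probe set above the filter for the replication-dependent histones, including the 2 that span families, and for the comparison lists; the black line is the median of each list. The histone members have a median of -0.88, against -0.30 for the S-phase genes and 0.00 for replacement histones, histone mRNA factors and chaperones.

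Genes with older Hist names whose current symbols fall outside the rule were read too, and are not in the member counts. H4f16, another H4 gene, differed by -0.90 and -0.81 from the control RIPs, H2bu2, another H2B gene, was 1.18 above both and was called higher, and H1f6, the testis linker histone, was below the filter with differences of 0.15 and 0.15.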

How the data were processed

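Per the labels' protocols, stem cells were lysed in polysome lysis buffer, RNA was recovered with anti-FLAG or IgG antibodies on Protein G beads, and biotin-labelled cDNA was hybridised by standard Affymetrix procedures to 5 arrays, 1 for each group named by the sample titles. Values deposited by the authors are log2 array signals, a scale read from their range; how background was corrected and arrays were normalized is not given in the sources used here. Precision is limited by the number of arrays.

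Symbols came from the platform annotation, which gave 1 symbol to 21640 probe sets, several to 1321 and none to 11799. Differences of log2 values were computed as deposited and counted at 2-fold among named probe sets above the level filter. Named members were, in each family, those called, the 5 others with the highest mean, and the highest and lowest score; from each list, those called and the 3 with the largest score. No design with a test was possible at 1 array in a group. The calling rule was run on simulated arrays with independent noise and planted shifts well past the threshold. That run checks the code and does not show how accurate the calls on these arrays are. Members, lists and rules were chosen with earlier results of these data known. Alternatives covered normalization, filter, threshold, probe set choice and the use of input. Python 3.11.15, pandas 2.3.3, numpy 2.4.6 and statsmodels 0.14.6 were used, and sequences came from RefSeq tables.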

Additional observations from a re-analysis of the deposited data

Results flagged for a closer look

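For 14 of 44 members above the filter the anti-FLAG RIP lay on opposite sides of its own input in the 2 lines, and at 2 of them, both shared probe sets, it lay at least 2-fold away on each side. Neither count was made over all named probe sets. H3 probe set 10403941 was above its input in the FLAG:MKRN1 line, by a log2 difference of 2.65, and below it in the FLAG:Ctrl line, at -1.43, a gap of 4.08 between the lines. H2b probe set 10403978 was below its input in the FLAG:MKRN1 line, at -1.23, and above it in the FLAG:Ctrl line, at 1.17, a gap of -2.40. With 1 array in each group these gaps were not tested. For 10403941 the gap includes an input difference of -2.73 between the lines.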

How the results depend on the processing

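No paired analysis was possible because each group has 1 array. In the order FLAG:Ctrl RIP then IgG RIP, alternatives moved the family medians as follows. Centring arrays on their medians gave -1.16 for all members, -0.57 for H1, -1.34 for H2a, -1.75 for H2b, -0.48 for H3 and -1.02 for H4, all against the FLAG:Ctrl RIP. Quantile normalization gave -0.047 and -0.050 for H1, -0.87 and -0.95 for H2a, -0.0043 and -0.087 for H3, and -0.55 for H4 against the IgG RIP. Removing the trend with signal level gave -0.11 and -0.12 for H1, -0.89 and -0.99 for H2a, -0.038 and -0.14 for H3, and -0.59 for H4 against the IgG RIP. With no level filter H2a was -0.65 and -0.77, and H1 was -0.19 against its input. With the filter at the 75th percentile no higher call was left, 0 against each control RIP and 1 against input, and the medians were -1.63 (MKRN1-labelled RIP) and -0.55 (IgG RIP) against input over all members, -0.65 and -0.77 for H2a, -1.75, -1.94 and, against input, -1.73 for H2b, and -0.57, -0.66 and -1.73 for H3. At 4-fold, 6 members were lower and 1 higher by the full rule and against each control RIP, and 10 were lower against input. With 1-symbol probe sets alone, 10 were lower and 1 higher by the full rule and against each control RIP, 14 were lower against input, H2b was -1.32, -1.05 and -1.05, and H3 reversed to 2.58, 2.32 and 3.26, the values of H3c15. With 1 probe set a gene, the counts lower were 13 (FLAG:Ctrl RIP) and 18 (input), H2b was -1.32 and -1.36, and H3 reversed to 0.90, 0.79 and 0.85. Those H3 values are the midpoints between H3c15 and the shared 10404049, the only H3 probe sets left above the filter. Centring on named probe sets above the filter was added after seeing the data. It and the other alternatives left these counts within 1.5 times and the medians within 0.198. That yardstick is the SD of the difference between the control RIPs, 0.280, scaled to 1 array, and is no replicate error. The control RIPs held equal values at 17.4% of all probe sets. Of 96 counts for the control RIPs and inputs, 24 moved by over 1.5 times. Probe set 10404067, H2ac15 and H4c6 lost their calls under quantile normalization and trend removal, 10404067, H2ac15 and H2bc18 under the added centring, and 15 of 22 calls at 4-fold; the cause was not tested. Differences near the spread of the control RIPs, an SD of 0.280, are limited by signal and by single arrays.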
